A study of Mus musculus with 9 samples.

Results

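The ATP-driven export pumps of the hepatocyte were followed in mouse liver RNA: Abcc2, Abcc3, Abcc4, Abcc6, Abcb1a, Abcb4, Abcb11, Abcg2, Abcg5 and Abcg8, 10 of the 18193 genes measured on the arrays. Each gene was taken by its symbol and stood for by the probe set, annotated to that symbol alone, that had the highest mean signal over the 9 arrays. All 10 were bright enough to be tested. The 9 livers came from female Crlj:CD1(ICR) mice, an outbred stock, bought at 9 weeks of age and quarantined for 1 week. For 2 weeks 3 mice ate a powdered diet with 0 ppm chemical (control), 3 mice ate it with 5000 ppm permethrin, a pyrethroid insecticide, and 3 mice ate it with 5000 ppm clofibrate, a lipid-lowering fibrate that activates the nuclear receptor PPAR alpha. RNA of each liver was hybridised to its own Affymetrix array. One label of the treated samples names rats, whereas their organism, source, strain and array all give mouse. The groups are whole livers at 1 dose and 1 time, so fewer cells of a type and less RNA per cell cannot be told apart in any value given here.

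A hepatocyte makes bile by pumping solutes across its canalicular membrane, the face that borders the bile channel, and it can send solutes back to the blood across its basolateral membrane. At the canalicular face Abcb11 exports bile salts, Abcb4 moves phosphatidylcholine to the outer leaflet, the paired half-transporters Abcg5 and Abcg8 export cholesterol and plant sterols, Abcc2 exports glucuronide and glutathione conjugates, and Abcg2 and Abcb1a export drugs and other foreign compounds. At the basolateral face Abcc3 and Abcc4 export conjugates and bile acids, and Abcc6 mediates the release of ATP, a source of the mineralisation inhibitor pyrophosphate. The comparisons ask which of these transcripts differed after each diet, and whether the treated groups differed from each other. Both treated groups were compared with the same 3 control arrays, so the 2 comparisons are not independent.

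With permethrin 2 of the 10 pumps rose, Abcc4 by 7.86-fold and Abcg2 by 2.21-fold, and 0 fell. With clofibrate Abcc4, Abcg2 and Abcb4 rose, by 4.71-fold, 2.30-fold and 1.47-fold, and Abcc6 fell by 1.74-fold. A change was called when its adjusted p in limma was under 0.05. Of all 12466 tested genes, 1.28% were called higher and 0.85% lower with permethrin, and 3.22% were called higher and 3.8% lower with clofibrate. The unadjusted limma p was under 0.05 for 8 of the 10 pumps in each comparison with control, and for 1968 and 2624 of all tested genes. In 5 pumps all 3 permethrin arrays lay above all 3 controls and in 2 pumps all lay below, where 9.53% and 13.2% of all tested genes did so. With clofibrate 4 pumps lay wholly above and 2 wholly below, against 11.6% and 15.6% of all tested genes. The median log2 change of the 10 pumps was 0.42 with permethrin and 0.52 with clofibrate, and that of all tested genes was -0.04 in both comparisons. Signals are linear array values, ± after a mean is the SD over 3 mice, and log2 changes are differences of log2(signal + 3.35) with their standard error, a scale that understates changes of dim genes.

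**Figure D1:**
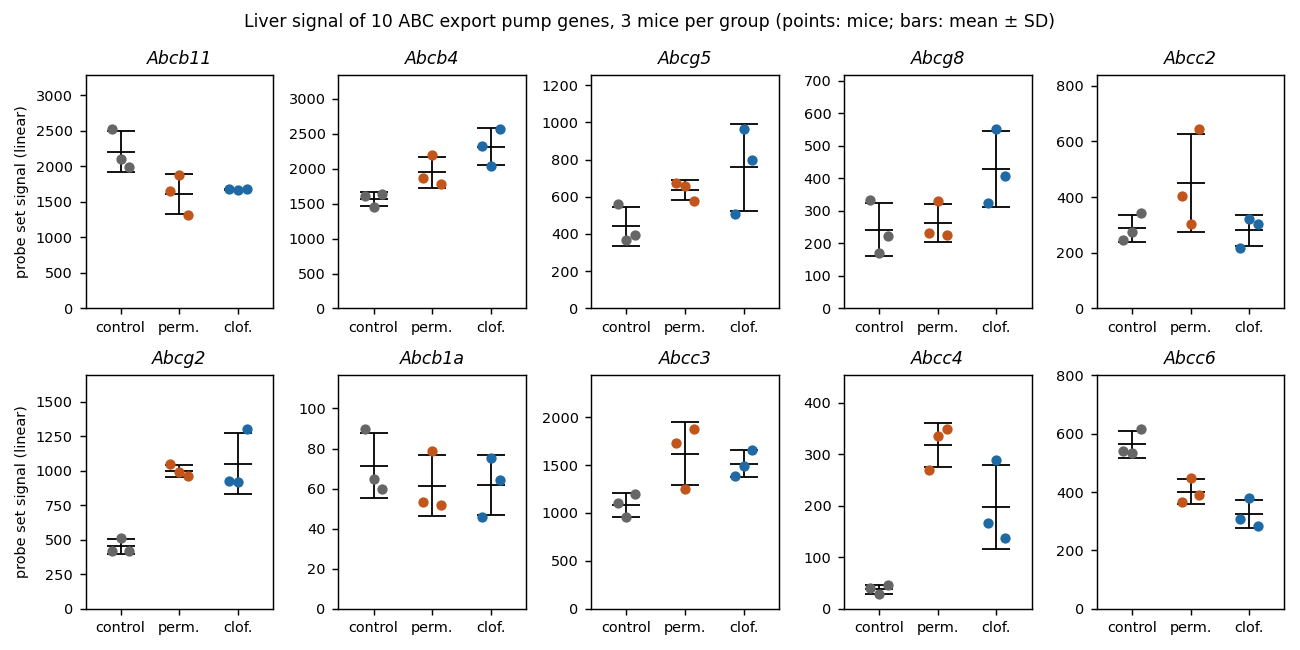
Each panel plots the linear probe set signal of 1 pump gene (vertical axis, from 0) in the 3 groups, with 1 point per mouse and bars for the mean and SD. All treated arrays lie above all controls for Abcc4, Abcg2, Abcc3 and Abcb4, and below them for Abcc6 and Abcb11.

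Among the basolateral pumps Abcc4 had the largest change of the 10 genes in both treated groups. It gave signals of 40.3, 28.2 and 45.5 in the 3 controls, 269, 336 and 350 with permethrin and 167, 290 and 137 with clofibrate. Every treated array exceeded every control by a wide margin, and the permethrin and clofibrate arrays overlapped through 1 clofibrate array. The log2 change was 2.97 ± 0.26 with permethrin (adjusted p 0.000174) and 2.23 ± 0.26 with clofibrate (adjusted p 0.000567). The difference between the treated groups was 0.74 ± 0.26 higher with permethrin, with a 95% interval of 0.17 to 1.31 that does not reach 0, but it was not called after adjustment (adjusted p 0.278). Both changes from control were called in all 25 other settings, at 2.64 to 3.11 and 1.93 to 2.55. Some of these settings could not move the log2 change. Abcc4 has only 1 probe set annotated to it alone, so choosing or averaging probe sets leaves it as it was. Leaving out an array of the group not compared does so too.

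The RefSeq promoter table (build GRCm38.p6), whose windows run from 250 bases before to 50 bases after a start site, holds 2 windows for Abcc4, and both are shown because Abcc4 had the largest change. The short motifs searched on both strands were TGACNNNGC, the core of the antioxidant response element bound by NRF2, AGGTCA, a half-site of nuclear receptors, and GATAA, the core bound by GATA factors. AGGTCA read on the other strand, TGACCT, shares its first letters with TGACNNNGC, but no matches overlapped in the pump windows. Capitals mark matches, and positions count from the start site at 0. Abcc4 window 1 holds TGACTCTGC at -23 to -15 and a GATAA at -230 to -226, and window 2 holds the antioxidant core on the other strand, as GCGGGGTCA, at -25 to -17.
Abcc4 window 1, chr14:118676882-118677181 (- strand): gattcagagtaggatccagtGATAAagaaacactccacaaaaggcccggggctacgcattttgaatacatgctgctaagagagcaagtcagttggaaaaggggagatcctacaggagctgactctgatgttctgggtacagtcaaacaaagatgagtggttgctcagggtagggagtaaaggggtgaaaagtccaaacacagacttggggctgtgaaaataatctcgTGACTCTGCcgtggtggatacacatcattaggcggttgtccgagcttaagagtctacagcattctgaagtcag
Abcc4 window 2, chr14:118706170-118706469 (- strand): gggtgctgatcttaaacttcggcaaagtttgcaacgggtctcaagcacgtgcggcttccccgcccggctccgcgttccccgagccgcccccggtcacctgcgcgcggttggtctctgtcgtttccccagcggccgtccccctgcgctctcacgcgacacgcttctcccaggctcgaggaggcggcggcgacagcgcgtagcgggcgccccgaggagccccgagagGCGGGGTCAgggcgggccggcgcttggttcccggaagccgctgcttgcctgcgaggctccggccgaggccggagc
Among all 32851 windows of that length, 12.4% hold TGACNNNGC, 16.3% hold AGGTCA and 25.4% hold GATAA. Of the 12 windows of the 8 pumps with an entry these motifs occurred in 4, 4 and 6, where the 6 counts the GATAA cores of the region shared by Abcg5 and Abcg8 in a window of each gene. Besides Abcc4, windows of Abcc2 and Abcb1a hold the antioxidant core. AGGTCA lies in windows of Abcc2, Abcb11 and Abcg2. Of these pumps Abcc2, Abcb1a and Abcb11 were not called in any comparison. Abcc3 and Abcc6 had no entry, so neither was searched. A match describes these letters and was not tested as a binding site.

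Abcc3, which exports glucuronides and bile acids to the blood, lay above the controls on every treated array without a called change. It gave signals of 1103, 954 and 1196 on the control arrays, 1734, 1245 and 1878 on the permethrin arrays and 1385, 1495 and 1661 on the clofibrate arrays. The lowest treated value came from permethrin replicate 2. The log2 changes were 0.56 ± 0.15 (adjusted p 0.112) and 0.48 ± 0.15 (adjusted p 0.106). Without permethrin replicate 2 both were called, at 0.74 (adjusted p 0.0286) and 0.48 (adjusted p 0.0381). The clofibrate change was also called with array weights (adjusted p 0.0246) and with hybridization-control scaling (0.82, adjusted p 0.026).

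Abcc6 was the only pump called lower, and this with clofibrate. It gave signals of 540, 533 and 617 on the control arrays, 365, 449 and 391 on the permethrin arrays and 309, 379 and 285 on the clofibrate arrays. All treated arrays lay below all controls, and the treated groups overlapped. The log2 change was -0.80 ± 0.14 with clofibrate (adjusted p 0.00635) and -0.49 ± 0.14 with permethrin (adjusted p 0.124). The difference between treated groups, 0.31 with an interval of 0.01 to 0.61, was not called (adjusted p 0.402). The clofibrate call was lost when each array was centred on its median (-0.71, adjusted p 0.0611) and when arrays were scaled to the spiked hybridization controls (-0.46, adjusted p 0.079). The latter scaling moved the median gene by 0.32, and relative to that gene Abcc6 was at -0.74.

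Other measures were also lower on the clofibrate arrays. Of 8 hepatocyte markers 7 were measured, and 4 of these (Alb, Apoa1, Cps1 and Fgb) were called lower with clofibrate and 0 with permethrin. Of all tested genes 3.8% and 0.85% were called lower, in that order. The unadjusted limma p was under 0.05 for 7 hepatocyte markers with clofibrate and for 3 with permethrin. The summed signal of the 7 ranged from 59602 to 66308 across controls, from 50662 to 56055 under permethrin and from 41596 to 50120 under clofibrate. The highest signal of any probe set on an array was 14387 to 14899, 12792 to 13409 and 10714 to 12058 in the same order. The control arrays also stood apart from both treated groups in their 18S ribosomal RNA probe signal, which was 191 to 208 on the control arrays, 47.6 to 131 under permethrin and 87.7 to 126 under clofibrate. The ratio of the 3' to the 5' Gapdh probe sets, a sign of RNA integrity, was 0.912 to 1.04, 0.835 to 0.904 and 0.856 to 0.894, again without overlap between control and treated arrays. The same ratio for actin was 3.01 to 3.98, 2.27 to 3.84 and 2.30 to 2.77 in that order. There the permethrin arrays overlapped the controls, and the clofibrate arrays lay below them. The part of these measures in the lower values of Abcc6 and Abcb11, and in the other differences from control, was not tested. One endothelial marker of 8, Fcgr2b, was called lower with clofibrate. The unadjusted limma p was under 0.05 for 5 of the 8 with clofibrate and for 1 with permethrin. The endothelial markers summed to 2475 to 2824 across controls, to 2237 to 2528 under permethrin and to 1788 to 2002 under clofibrate. For cholangiocytes, which also carry transporters, 4 of 6 measured markers were tested and 0 called, with sums of 246 to 284, 198 to 251 and 243 to 280, while Krt7 and Cftr were below the filter on dim probe sets. Of the markers of Kupffer cells (8 tested), stellate cells (8), lymphocytes (4) and red cell precursors (3), 0 were called in any comparison, and at most 3 of a list, the stellate one, had an unadjusted limma p under 0.05. The stellate markers summed to 2796 to 3729 across controls, to 2383 to 2601 under permethrin and to 2167 to 2678 under clofibrate.

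At the canalicular face the signal of Abcb11 lay below the controls and that of Abcb4 above them on every treated array. Abcb11, the bile salt export pump, gave signals of 2535, 2109 and 1988 on the control arrays, 1652, 1875 and 1317 on the permethrin arrays and 1679, 1670 and 1677 on the clofibrate arrays. All treated arrays lay below all controls, and the 3 clofibrate arrays had a coefficient of variation of only 0.278%. The log2 changes were -0.46 ± 0.14 with permethrin (adjusted p 0.14) and -0.39 ± 0.14 with clofibrate (adjusted p 0.132), and neither was called in any of the 25 other settings.

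Abcb4, the phosphatidylcholine floppase, rose with clofibrate. It gave signals of 1611, 1458 and 1638 on the control arrays, 1867, 2195 and 1781 on the permethrin arrays and 2330, 2043 and 2575 on the clofibrate arrays. All treated arrays lay above all controls. The rise with clofibrate was 0.56 ± 0.12 (adjusted p 0.0182), and the difference with permethrin, 0.31 ± 0.12, was not called (adjusted p 0.263). The treated groups differed by -0.25 (permethrin minus clofibrate, interval -0.51 to 0.01, adjusted p 0.429). The clofibrate call was lost without control replicate 1 (0.58, adjusted p 0.0573), control replicate 2 (0.50, adjusted p 0.0762) or clofibrate replicate 3 (0.48, adjusted p 0.0894), and without the intensity trend (adjusted p 0.0897). Its promoter window is shown because the gene was called. It holds 1 GATAA core, on the other strand at -98 to -94, and neither of the other motifs.
Abcb4 window, chr5:8893471-8893770 (+ strand): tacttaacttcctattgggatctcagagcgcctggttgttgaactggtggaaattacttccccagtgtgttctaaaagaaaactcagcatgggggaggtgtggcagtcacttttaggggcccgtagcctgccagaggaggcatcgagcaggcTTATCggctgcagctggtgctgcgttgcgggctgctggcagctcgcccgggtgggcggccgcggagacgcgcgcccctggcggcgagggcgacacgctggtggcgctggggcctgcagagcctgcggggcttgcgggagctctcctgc

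Abcg5 and Abcg8 encode the subunits of 1 cholesterol transporter. Abcg5 gave signals of 563, 370 and 395 on the control arrays, 675, 656 and 578 on the permethrin arrays and 508, 966 and 800 on the clofibrate arrays. Every permethrin array exceeded every control, whereas the lowest clofibrate array fell below the highest control. Abcg8 gave signals of 334, 172 and 223 on the control arrays, 233, 331 and 225 on the permethrin arrays and 324, 553 and 408 on the clofibrate arrays. Its permethrin arrays lay within the control range, and 2 of the 3 clofibrate arrays lay above it. With permethrin the log2 change was 0.54 ± 0.22 for Abcg5 (adjusted p 0.306) and 0.15 ± 0.26 for Abcg8 (adjusted p 0.857). With clofibrate it was 0.75 ± 0.22 for Abcg5 (adjusted p 0.0809) and 0.83 ± 0.26 for Abcg8 (adjusted p 0.0927). None of these passed the threshold. The clofibrate change was called for Abcg5 without clofibrate replicate 1 (1.01, adjusted p 0.0107) and for Abcg8 without control replicate 1 (1.08, adjusted p 0.0439). It was called for both with array weights (adjusted p 0.016 and 0.0367) and with hybridization-control scaling (0.00898 and 0.00644). For Abcg8 the permethrin change was -0.0736 without control replicate 2 and -0.0305 without permethrin replicate 2.

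The genes lie head to head, and the region their windows share is shown because the pair is read outward from it. It is 209 bases long with 110 bases between the start sites, and holds 3 GATAA cores and neither of the other motifs. One core reads along the strand of Abcg8 at -126 to -122 from the Abcg8 start, 12 to 16 bases into the Abcg5 transcript. The other 2 read along the opposite strand, at -93 to -89 and -63 to -59, between the starts.
Abcg5 and Abcg8 shared region, chr17:84682962-84683170 (+ strand): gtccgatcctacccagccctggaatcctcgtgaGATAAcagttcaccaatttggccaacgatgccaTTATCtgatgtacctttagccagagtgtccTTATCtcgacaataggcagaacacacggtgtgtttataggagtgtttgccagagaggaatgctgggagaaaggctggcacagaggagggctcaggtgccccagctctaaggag
Over the 9 arrays the log2 signals of the pair correlated at Pearson r 0.83. Abcg8 ranked 143rd among 12465 other genes by likeness to Abcg5, and Abcg5 ranked 86th by likeness to Abcg8.

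**Figure D2:**
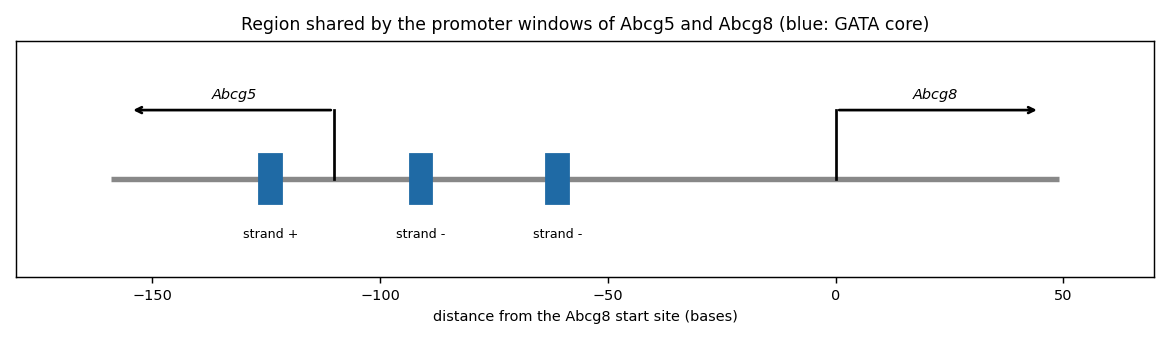
The map shows the region shared by the Abcg5 and Abcg8 promoter windows, with distance from the Abcg8 start site in bases on the horizontal axis. Arrows mark the start sites and their directions, 110 bases apart, and blue boxes mark the 3 GATAA cores with the strand they read on relative to Abcg8.

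Abcg2, known as breast cancer resistance protein and an exporter of sulfate conjugates and drugs, rose with both diets. It gave signals of 422, 512 and 421 on the control arrays, 1049, 991 and 962 on the permethrin arrays and 929, 923 and 1305 on the clofibrate arrays. All treated arrays lay far above the controls, and the highest value came from clofibrate replicate 3. The log2 change was 1.15 ± 0.15 with permethrin (adjusted p 0.00256) and 1.20 ± 0.15 with clofibrate (adjusted p 0.000743). The difference between them was -0.05 (permethrin minus clofibrate), with an interval of -0.37 to 0.27 (adjusted p 0.927). Both rises were called in all 25 other settings, at 1.10 to 1.29 and 1.04 to 1.53. As with Abcc4, only 1 probe set is annotated to Abcg2 alone, so some of these settings could not move the log2 change. Abcg2 has 3 promoter windows, shown as the second gene that rose with both diets. Window 1 holds 2 AGGTCA half-sites, at -212 to -207 on the other strand and at -121 to -116, window 2 holds none of the motifs, and window 3 holds an AGGTCA at -197 to -192 and a GATAA core on the other strand at -204 to -200.
Abcg2 window 1, chr6:58584283-58584582 (+ strand): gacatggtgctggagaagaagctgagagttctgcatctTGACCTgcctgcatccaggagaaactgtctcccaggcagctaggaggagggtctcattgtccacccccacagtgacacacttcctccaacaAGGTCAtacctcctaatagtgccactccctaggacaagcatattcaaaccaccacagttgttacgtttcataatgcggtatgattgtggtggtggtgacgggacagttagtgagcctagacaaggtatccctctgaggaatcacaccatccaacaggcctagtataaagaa
Abcg2 window 2, chr6:58596422-58596721 (+ strand): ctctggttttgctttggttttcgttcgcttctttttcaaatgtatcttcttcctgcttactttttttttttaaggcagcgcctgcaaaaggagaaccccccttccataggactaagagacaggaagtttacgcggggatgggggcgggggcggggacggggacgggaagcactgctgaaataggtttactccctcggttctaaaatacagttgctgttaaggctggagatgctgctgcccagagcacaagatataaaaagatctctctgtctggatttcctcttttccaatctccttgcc
Abcg2 window 3, chr6:58640296-58640595 (+ strand): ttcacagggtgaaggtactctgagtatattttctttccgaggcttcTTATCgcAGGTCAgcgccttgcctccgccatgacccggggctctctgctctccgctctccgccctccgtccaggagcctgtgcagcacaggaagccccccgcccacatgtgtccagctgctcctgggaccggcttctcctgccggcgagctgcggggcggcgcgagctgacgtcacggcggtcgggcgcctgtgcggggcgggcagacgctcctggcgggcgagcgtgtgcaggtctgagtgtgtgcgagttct

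Abcc2, the conjugate export pump of the canaliculus, gave signals of 247, 274 and 341 on the control arrays, 402, 304 and 646 on the permethrin arrays and 218, 321 and 301 on the clofibrate arrays. The permethrin arrays reached highest but overlapped the controls, and the clofibrate arrays overlapped the controls, with 1 array below all of them. The log2 change was 0.59 ± 0.25 with permethrin (adjusted p 0.325) and -0.04 ± 0.25 with clofibrate (adjusted p 0.951). The clofibrate value was above 0 after median centring (0.0414) and hybridization-control scaling (0.29), where it was also not called. The treated groups differed by 0.63, with an interval of 0.08 to 1.18, which was not called (adjusted p 0.342). Abcb1a, a P-glycoprotein that exports drugs, gave signals of 89.9, 64.6 and 59.8 on the control arrays, 53.4, 78.9 and 51.9 on the permethrin arrays and 45.8, 75.2 and 64.3 on the clofibrate arrays. The groups overlapped throughout. Its log2 change was -0.21 ± 0.23 in both comparisons with control (adjusted p 0.749 and 0.704), and a second probe set gave -0.24 in both. Scaling to the hybridization controls turned the clofibrate value to 0.11. Its relative Abcb1b was above the filter on too few arrays to be tested. Abcc1, a relative of Abcc2, was near the filter, at 21.9 ± 1.18 in the control livers, 23.6 ± 5.26 under permethrin and 18.5 ± 1.43 under clofibrate, with 0 calls.

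**Figure D3:**
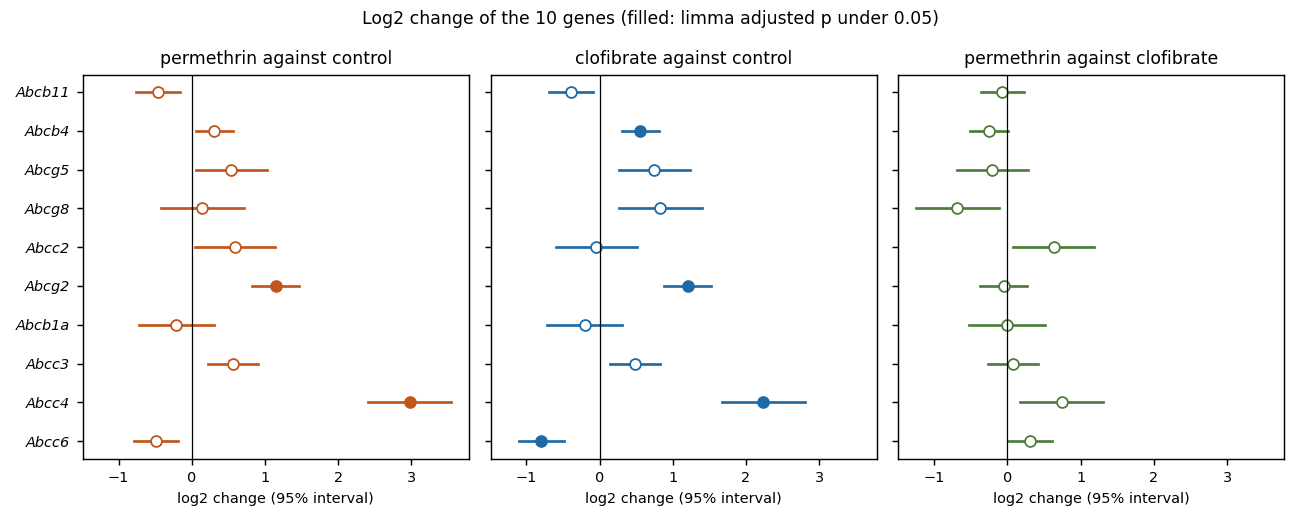
Log2 changes of the 10 pump genes (horizontal axis) with 95% intervals are drawn for the 3 comparisons, and filled points passed the limma threshold. Abcc4 and Abcg2 are filled in both comparisons with control, Abcb4 and Abcc6 with clofibrate alone, and no gene is filled between the treated groups.

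Compared directly, the treated groups gave 0 called pumps in limma and in each of the 25 other settings, while 0.473% of all tested genes were called higher and 0.265% lower with permethrin than with clofibrate. The unadjusted limma p was under 0.05 for 4 pumps: Abcc2 and Abcc4, which were higher with permethrin, Abcg8, which was lower, and Abcc6, which was higher. It was under 0.05 for 1624 of the 12466 genes. The arrays of the treated groups overlapped for all 10 pumps, where 9.08% of tested genes lay wholly above and 9.02% wholly below. For Abcc3 the difference was 0.08 with an interval of -0.26 to 0.42, and it turned to -0.11 with hybridization-control scaling. For Abcb11 it was -0.07 (-0.37 to 0.23), for Abcg5 -0.21 (-0.69 to 0.28) and for Abcb1a -0.01 (-0.52 to 0.51). These intervals bound the differences and do not show that the diets act alike.

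**Figure D4:**
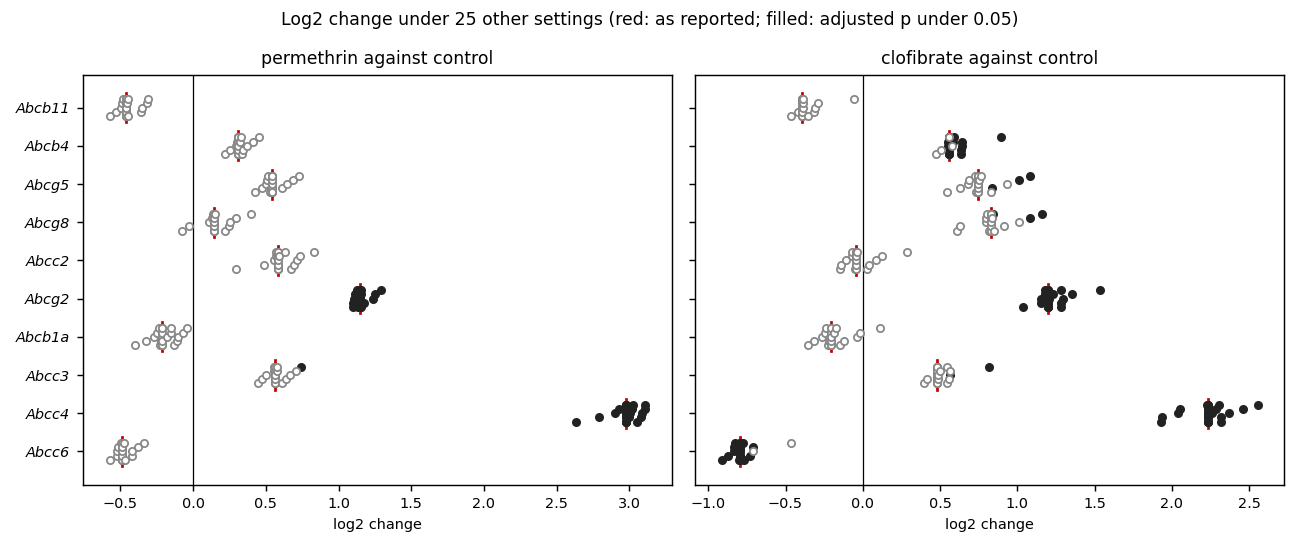
Each point is the log2 change of a pump gene (horizontal axis) against control under 1 of 25 other settings, the red line is the reported value, and filled points had an adjusted p under 0.05. Abcc4 and Abcg2 are filled throughout in both panels, and Abcb4 and Abcc6 with clofibrate are filled in 21 and 23 of the settings.

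Across the whole table the pumps sat among 266 genes called with permethrin, 876 with clofibrate and 92 between the treated groups. The share called higher was 60.2%, 45.9% and 64.1%, in that order, and depended on scaling: it was 81.8%, 62.6% and 78.8% after median centring, 86.7%, 92.0% and 20.9% with hybridization-control scaling, and 52.1% between the treated groups with cyclic loess. Hybridization-control scaling moved the median gene by 0.14, 0.32 and -0.18, and median centring by 0.11 in the first comparison. Log2 signals of arrays correlated at 0.959 to 0.970 within groups and 0.948 to 0.966 between groups.

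The lists below were chosen with earlier results of these data known. Beside their counts, 1.28% of all tested genes were called higher and 0.85% lower with permethrin. With clofibrate 3.22% were called higher and 3.8% lower, and between the treated groups 0.473% and 0.265%. Of the wider ABC transporter family, 30 of 43 listed genes were tested. Abcd3, which carries fatty acyl-CoA into peroxisomes, rose with both diets, by 0.77 ± 0.11 with permethrin (adjusted p 0.00411) and 0.83 ± 0.11 with clofibrate (adjusted p 0.000986). It was the only family member called with permethrin, and that call was lost without the intensity trend (adjusted p 0.0658). With clofibrate 4 fell: Abca2 by 1.28, Abca8a by 1.09, Abcc5, an exporter of cyclic nucleotides, by 0.86 and Abca3, a lipid transporter known from lung surfactant, by 0.56 on the log2 scale. Another probe set of Abcc5 gave 0.21 and was not called. That count of 4 was 1 without control replicate 1, control replicate 3 or clofibrate replicate 3 and with hybridization-control scaling, and 2 without control replicate 2 or clofibrate replicate 2. The 4 also became 1 without the intensity trend, and 2 with the mean of a gene's probe sets or the probe set of second highest signal. The 1 called higher with clofibrate became 2 without permethrin replicate 1, with the mean of a gene's probe sets or with only the 6 arrays compared, 3 with hybridization-control scaling or array weights, and 0 with the probe set of second highest signal, where Abcd3 has no value. The family's median log2 change was -0.02 with permethrin and -0.01 with clofibrate, beside -0.04 for all genes.

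Among 18 tested partners of canalicular secretion (scaffolds, flippase, vesicle traffic and other exporters), 0 were called with permethrin (1 had an unadjusted limma p under 0.05) and Slc9a3r1, a scaffold that anchors membrane transporters, fell by 0.68 ± 0.15 on the log2 scale with clofibrate (adjusted p 0.0212). That call was lost without control replicate 1, control replicate 3 or clofibrate replicate 1, and with median centring or hybridization-control scaling. Of 17 tested regulators of pump genes, including Nr1h4, Nr1h3, Nr1i2, Nr1i3, Ppara and Nfe2l2, 0 were called in any comparison, although 3 with permethrin and 6 with clofibrate had an unadjusted limma p under 0.05. One was called lower with clofibrate without permethrin replicate 1, and with hybridization-control scaling 3 were called higher. The list medians were -0.03 and -0.15 for partners and -0.02 and 0.14 for regulators, with permethrin first.

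On the opposite, sinusoidal side of bile flow, 5 of 12 tested genes listed as uptake carriers fell with clofibrate. With permethrin 0 were called, and 4 had an unadjusted limma p under 0.05. Slc22a7, an organic anion carrier, fell by 2.50 and Slco1a4, another, by 2.30, while Slc10a1, the sodium-dependent bile acid carrier, fell by 0.60 on the log2 scale. Scarb1, the HDL receptor, fell by 0.86 and Slc27a5, a bile acid-CoA ligase, by 0.48, and Slc16a1, a monocarboxylate carrier, rose by 0.97. The 5 became 3 without control replicate 1 or control replicate 3 and with median centring, 2 with hybridization-control scaling or without the intensity trend, and 8 with array weights. The rise of Slc16a1 was lost without control replicate 1 or clofibrate replicate 3 and without the intensity trend. With permethrin 1 carrier was called lower without control replicate 2, permethrin replicate 3, clofibrate replicate 1 or clofibrate replicate 2. The list median was -0.21 with permethrin and -0.53 with clofibrate.

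Genes that supply bile acids, cholesterol and phospholipid to the pumps moved in both directions among 19 tested. Pctp, a phosphatidylcholine transfer protein, rose with both diets, by 3.22 ± 0.50 with permethrin (adjusted p 0.00935) and 3.91 ± 0.50 with clofibrate (adjusted p 0.00106). Its control arrays spread widely, at a signal of 185 ± 186 (SD, n = 3), against 1273 ± 64.9 under permethrin and 2095 ± 495 under clofibrate. Without control replicate 2 the changes of Pctp were 4.0 and 4.69, and the permethrin call was lost without the intensity trend (adjusted p 0.0644) or with robust moderation (0.0648). Acox2, a peroxisomal oxidase of bile acid intermediates, rose by 0.73 ± 0.15 and 0.58 ± 0.15 (adjusted p 0.0356 and 0.0454). The calls of Acox2 lay near the threshold: of 25 alternatives 9 ended the permethrin call and 12 the clofibrate call, among them leaving out control replicate 1, control replicate 2, permethrin replicate 1 or permethrin replicate 2 in both comparisons, permethrin replicate 3 in the first and any clofibrate replicate in the second. With clofibrate Sqle, an enzyme of cholesterol synthesis, rose by 1.71, and 5 genes fell, Cyp39a1 by 2.64, Cyp2c70 by 1.25, Akr1d1 by 0.59, Slc27a5 by 0.48 and Cyp27a1 by 0.40 on the log2 scale. Slc27a5 is also in the list of uptake carriers and is counted in both. The 5 became 3 without control replicate 1 or clofibrate replicate 2, and 2 with median centring, hybridization-control scaling or no intensity trend. The 2 called with permethrin became 1 without control replicate 1, control replicate 2 or any of the permethrin replicates, and 0 without the intensity trend. The list median was -0.04 and -0.28. Between the treated groups Cyp7b1 and Cyp2c70 were called higher with permethrin, and 1 or 0 genes were when any of the 9 arrays was left out.

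Of 24 tested NRF2 marker genes 10 rose with permethrin and 0 fell, and the median log2 change of the 24 was 0.60. Among those not called were Nqo1 (0.59, limma adjusted p 0.0757), Gclc (0.47, 0.364), Gclm (0.16, 0.701) and Hmox1 (0.32, 0.781). Slc7a11 was below the filter on dim probe sets and was not tested. The glutathione transferases Gstm3 and Gsta2 rose on the log2 scale by 1.85 and 1.31 (Gstm3 by 2.88 on another probe set), Me1 by 1.65, the epoxide hydrolase Ephx1 by 1.28 and Ugdh, which makes UDP-glucuronic acid, by 1.26. Cbr3, a carbonyl reductase, had a signal of 13.6 ± 5.30 on the control arrays, below the minimum of 15.6 for dim probe sets, 129 ± 14.2 on the permethrin arrays and 31.6 ± 2.09 on the clofibrate arrays (SD, n = 3). It was tested only through the treated arrays and is among the genes called higher with both diets, so no size is given against control. With clofibrate 5 rose and 3 fell, with a median of 0.08. Me1 rose by 1.82, Ephx1 by 0.88, and Ugdh by 0.80, and Gsta4 fell by 0.77 and Ces2g by 0.65. The clofibrate call of Cbr3 was lost without control replicate 1, control replicate 2 or clofibrate replicate 3 and with only the 6 arrays compared. The 5 became 3 without control replicate 1 or control replicate 2 and with only the 6 arrays compared, and 8 with hybridization-control scaling. The 3 became 1 without control replicate 1, control replicate 3 or clofibrate replicate 3 and with median centring, and 0 with hybridization-control scaling. Between the treated groups 6 were called higher with permethrin, among them Cbr3 by 1.92 and Gstm3 by 1.86. The 6 became 3 with hybridization-control scaling, and the lowest count in a setting that kept every array was 2.

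Phase II enzymes conjugate compounds that Abcc2, Abcc3, Abcc4 and Abcg2 can carry. Their list also holds Papss2, which makes the sulfate donor, and Gss, which makes glutathione. The listed Ugt1a1, Ugt1a5, Ugt1a6a and Ugt1a9 had no probe set annotated to them alone and were not measured. Of 14 tested genes of this list 4 fell with clofibrate. On the log2 scale Ugt2b1 fell by 1.02, Sult1a1 by 0.91, Ugt2a3 by 0.76 and Ugt2b36 by 0.38. The 4 became 2 without control replicate 1, control replicate 3 or clofibrate replicate 3 and with median centring, and 1 with hybridization-control scaling. With permethrin Ugt2b35 rose by 0.91 ± 0.20 (limma adjusted p 0.0465), a call lost in 13 of the 25 other settings. Among these were leaving out any of the controls or permethrin replicates or clofibrate replicate 3, and settings that kept every array. With permethrin 1 gene of the list was called lower without permethrin replicate 2 or clofibrate replicate 2. The list median was -0.19 with permethrin and -0.43 with clofibrate. Between the treated groups 3 were called higher with permethrin (Ugt2b1, Ugt2b34 and Ugt2b35). That count was 0 without permethrin replicate 1, permethrin replicate 2 or clofibrate replicate 3, and 1 without clofibrate replicate 2. It was also at most 1 in 4 of the 16 settings that kept every array, and 0 at the lowest. The Ugt2b genes are related in sequence, so their probe sets may share signal.

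Over the 9 arrays, which fall into 3 groups, the genes most like Abcc4 in log2 signal among 12456 genes were Ephx1 (Pearson r 0.98), Tbca (0.96) and Pir (0.96). Ephx1 averaged 2554 ± 231 in the control livers, 6205 ± 424 under permethrin and 4680 ± 252 under clofibrate, the same order of groups as Abcc4. Those most like Abcg5 were Pex16 (0.97), Rdh14 (0.97) and Fam126b (0.96), and those most like Abcg8 were Clmn (0.96), Ppara (0.96) and Pcnx (0.95). Among the pumps Abcc4 and Abcg2 correlated at 0.84, and Abcg2 ranked 172nd of 12465 genes by likeness to Abcc4. These correlations describe arrays that share the group differences and carry no test.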

How the data were processed

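RNA of 9 livers was measured on Affymetrix arrays, 1 per mouse. Per the submitters' processing notes the authors used MAS5, and the deposited values are linear signal intensities, 1 per probe set and array, with the version and settings of that tool not given in the sources used here. On every array the mean without the lowest and highest 2% of signals was 100.001. Of 45037 probe sets that are not controls, 34945 carried 1 symbol. An offset of 3.35 (the 20th percentile of signals) was added before log2, and probe sets above 15.6 (the median) on at least 3 arrays were tested, 24546 in all. All 9 arrays entered 1 limma model (3.58.1, R 4.3.3, data.table, version 1.17.8) with a mean per group and an intensity trend, two-sided, with Benjamini-Hochberg adjustment over the probe sets tested and a threshold of 0.05. The scripts were tested on simulated data. All members, list genes past the threshold (at most 6 per comparison) and the 3 genes most like Abcc4, Abcg5 and Abcg8 were named. Members and lists were chosen with earlier results of these data known. The 25 other settings covered scaling, offset, filter, variance model, probe set choice, array weights, a replicate block and leaving out each array. The number of arrays limits the precision.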

Additional observations from a re-analysis of the deposited data

How the results depend on the processing

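The number of pumps called was the same in all 16 settings that kept every array for permethrin (2 pumps) and for permethrin against clofibrate (0 pumps). For clofibrate those settings gave 3 to 7 pumps against 4, the 7 being with array weights, where Abcc3, Abcg5 and Abcg8 were called too. Leaving out 1 array gave 2 to 3, 3 to 5 and 0 pumps in the order permethrin, clofibrate and between them. Of 750 values (30 log2 changes of pumps in 25 settings), 714 kept their direction and side of the threshold, 6 lost a call, 10 gained one and 20 changed sign, the last without a call on either side. The cause was not tested. Part of the 714 was fixed in advance. Among the pumps only Abcb1a has a second probe set, so the second-probe-set setting repeats the reported fit for the others. Averaging probe sets leaves the log2 changes of those others as they were. Leaving out an array of the group not compared also leaves a log2 change as it was, and can alter only its call.

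The sign changed for Abcb1a between the treated groups with quantile normalization (0.0617), median centring (0.0149), cyclic loess (0.0375), the second probe set (0.0015) and 1 array left out (-0.196 to 0.142). For Abcc2 with clofibrate it changed with median centring (0.0414), hybridization-control scaling (0.289), array weights (0.0298) and 1 array left out (-0.150 to 0.126). Hybridization-control scaling gave 0.113 for Abcb1a and 0.0752 for Abcc1 with clofibrate, and -0.108 for Abcc3 between the treated groups. The second probe set of Abcc5 gave 0.205 with clofibrate. Leaving out 1 array gave -0.0736 to 0.399 for Abcg8 and -0.0509 to 0.236 for Abcc1 with permethrin, and between the treated groups -0.0384 to 0.257 for Abcc3, -0.184 to 0.0705 for Abcb11 and -0.138 to 0.111 for Abcg2.

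The 266 genes called with permethrin were 143 with median centring, 166 with hybridization-control scaling, 80 without the intensity trend, 108, 174 and 130 without control replicate 1, 2 or 3, and 170 and 121 without permethrin replicate 2 or 3. The 876 with clofibrate were 487 with median centring, 397 without the trend, 1496 with array weights, 473, 558 and 496 without control replicate 1, 2 or 3, and 430 without clofibrate replicate 3. The 92 between the treated groups were 33, 43, 10 and 226 with centring, hybridization controls, no trend and array weights, 48 with only the 6 arrays compared, 47, 57 and 61 without permethrin replicate 1, 2 or 3, and 50 and 17 without clofibrate replicate 2 or 3.

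The labels do not say that replicate numbers pair mice. Deviations of same-numbered arrays from their group means correlated at r -0.109 to 0.113 over 9 pairs, on both sides of 0. Of 9 arrays 5 correlated best with their own number, a count that was not tested. With a replicate block 2, 4 and 0 pumps and 205, 726 and 63 genes were called.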
